A study of Mus musculus with 10 samples.

Results

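Top2a, Pcna, E2f5, Rbl2 and Mdm2 are 5 of the 597 named genes on the membrane used in the study, taken here because the name printed beside their spots identifies each of them. They cover DNA replication and mitosis (Top2a and Pcna), the E2F and retinoblastoma family (E2f5 and Rbl2, whose protein is p130) and the control of p53 (Mdm2). All 5 were found, each as a pair of spots on all 10 arrays.

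The study measured total RNA from spleen cell suspensions (splenocytes, a mixture of lymphocytes, myeloid and other cells) of FVB mice aged 6 weeks. The transgenic group (n = 7) carried the transgene CD22DE12, and the wild-type control group (n = 3) was FVB without it. CD22 is a B cell surface protein that restrains antigen receptor signalling; the form called CD22DE12 lacks an exon. The promoter that drives the transgene and the number of founder lines were not given in the sources used here, and although the transgenic titles carry separate numbers, no label states that each array is a different mouse, so the tests below measure the spread between these samples, which may be technical. One nylon membrane per sample was probed with cDNA labelled with 32P.

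Progress through the cell cycle is gated by the retinoblastoma family, pRb, p107 and p130, which hold E2F factors in check until cyclin-dependent kinases phosphorylate them. In resting cells p130, with E2F4 or E2F5 and other proteins, forms a repressor complex that keeps genes of replication and mitosis silent. p53 halts the cycle after DNA damage through targets such as Cdkn1a, and Mdm2, itself a p53 target, marks p53 for degradation. In the spleen most lymphocytes rest, and dividing cells are found among activated B cells and, in mice, among erythroid precursors.

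Promoters are shown for Top2a and Pcna because their covariation is described below, and for Rbl2 and Mdm2 so that the 4 can be read side by side. Each is the 250 bases before the transcript start that the RefSeq promoter table uses on GRCm38.p6 (the annotated Top2a gene extends into its window), printed 5′ to 3′ on the strand of the gene. Capitals mark matches on either strand to CCAAT (the CCAAT box), TTTGAA (the cell cycle genes homology region, known from genes of late cycle), TTTNNCGC (an E2F site core) and GGGCGG (a GC box). RefSeq promoter sequences were matched for 4 of the 5 genes, with E2f5 the gene not shown.
Top2a, chr11:99024190-99024439, minus strand: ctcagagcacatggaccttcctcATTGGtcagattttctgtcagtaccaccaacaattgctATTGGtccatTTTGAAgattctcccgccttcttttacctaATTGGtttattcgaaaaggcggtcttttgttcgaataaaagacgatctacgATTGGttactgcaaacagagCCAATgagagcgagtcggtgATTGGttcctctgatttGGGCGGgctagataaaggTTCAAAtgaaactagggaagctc
Pcna, chr2:132253181-132253430, minus strand: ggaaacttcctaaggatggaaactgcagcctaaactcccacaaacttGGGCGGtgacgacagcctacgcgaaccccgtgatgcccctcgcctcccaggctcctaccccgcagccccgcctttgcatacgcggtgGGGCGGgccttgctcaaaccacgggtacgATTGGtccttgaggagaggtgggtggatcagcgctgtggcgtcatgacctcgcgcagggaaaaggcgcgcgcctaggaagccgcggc
Rbl2, chr8:91069807-91070056, plus strand: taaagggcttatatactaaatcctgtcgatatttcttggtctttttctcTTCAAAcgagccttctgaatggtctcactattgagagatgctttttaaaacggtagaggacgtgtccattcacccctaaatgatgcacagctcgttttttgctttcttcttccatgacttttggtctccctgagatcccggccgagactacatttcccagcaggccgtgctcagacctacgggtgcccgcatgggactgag
Mdm2, chr10:117710759-117711008, minus strand: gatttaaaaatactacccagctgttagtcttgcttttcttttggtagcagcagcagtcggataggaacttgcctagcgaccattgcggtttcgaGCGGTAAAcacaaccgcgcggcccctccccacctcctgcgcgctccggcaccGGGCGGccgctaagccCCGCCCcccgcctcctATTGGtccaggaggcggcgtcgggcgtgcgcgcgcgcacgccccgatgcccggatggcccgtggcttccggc

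The Top2a window held 6 CCAAT boxes, 2 cell cycle homology elements and 1 GC box. The Pcna window held 1 CCAAT box and 2 GC boxes, and neither it nor the Top2a window contained the letters searched for as an E2F core. The Mdm2 window held 1 CCAAT box, 1 E2F core and 2 GC boxes, and the Rbl2 window held 1 cell cycle homology element. Among 32851 RefSeq promoter windows of the same length, 33.8% held a CCAAT box, 16.0% the cell cycle homology element, 4.28% the E2F core and 32.7% a GC box. These matches are letters found in a window and were not tested as binding sites.

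Signals were read as grey levels of a spot minus a ring of local background around it. Counted as above background were genes with the quality code 0 on 1 or both of their 2 spots. By that rule Top2a, Pcna, E2f5 and Mdm2 stood above background on all 10 arrays, as did 59.8% of all genes, and Rbl2 did so on 9, with wild-type replicate 3 as the exception. The meaning of the code is not stated, and 89 to 115 of the 126 spots without a gene name also carried code 0. On every array the median signal of those spots was above that of the named genes. Code 0 by itself therefore does not show expression in the spleen. Of the 100 spots of the 5 genes, 94 carried code 0, and their local background was at most 81.3 grey levels. Levels of different genes were not ranked, since each cDNA spot binds its target with its own strength.

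Median signal above background over all genes was 13.8 to 18.7 grey levels on 8 arrays and 4.45 and 4.06 on transgenic replicates 6 and 7. By the times in the file headers those 2 arrays were quantified in a later, second sitting without any wild-type array, so comparisons are also given for the 8 arrays of the first sitting alone, of which 5 were transgenic. Before normalization these 2 arrays gave the lowest signals of the transgenic group for all 5 genes. Normalized signal is log2 of background-corrected signal plus 50 grey levels after quantile normalization, and on this scale the differences of such dim spots are compressed. Across all 597 genes no difference passed limma's test at an adjusted p under 0.05 (0% called, smallest adjusted p 0.503). An unadjusted p under 0.05 was reached by 43 genes or 7.20% by limma and by 29 by the exact permutation test. A share of 0.05 of the 597 genes is 29.85. Cd22, the gene of the transgene, was itself not higher in the transgenic group, with a difference of -0.24 (SE 0.087, adjusted p = 0.562 by limma); whether its spot detects the transgene was not tested.

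**Figure D1:**
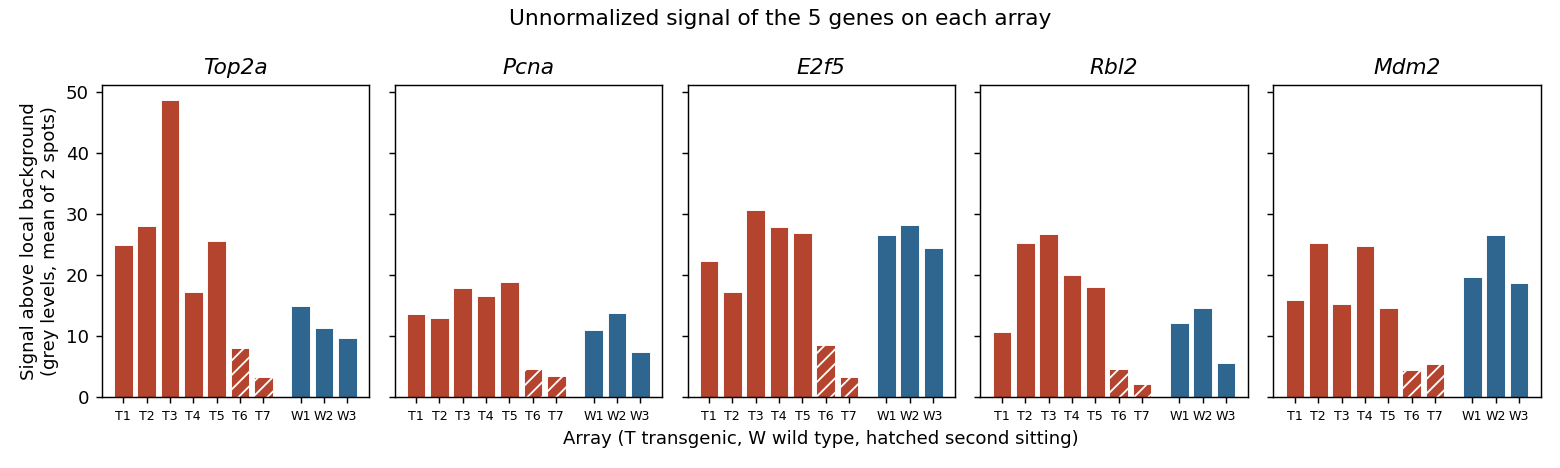
Unnormalized signal of the 5 genes on each array, in grey levels above local background (mean of 2 spots, linear axis from 0). Red bars are transgenic arrays (T1 to T7), blue bars wild-type arrays (W1 to W3), and hatching marks the second sitting; Top2a reached 48.7 on transgenic replicate 3 against at most 14.9 in wild type.

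Top2a encodes topoisomerase II alpha, the enzyme that disentangles sister chromatids and whose level rises in dividing cells as they near mitosis. Its unnormalized signal in the transgenic group ran from 3.42 through a median of 24.96 to 48.7 grey levels, and the wild-type arrays gave 14.9, 11.3 and 9.72. All 5 transgenic arrays of the first sitting lay above the highest wild-type array, at 28.9 ± 11.8 grey levels (SD, n = 5) against 11.98 ± 2.65 (SD, n = 3), while both second-sitting arrays lay below the lowest. How many of all genes separate in this way before normalization was not counted, and for Top2a the separation did not hold after normalization.

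After normalization Top2a ran from 5.90 through 6.11 to 6.33 in the transgenic group, and the wild-type arrays gave 5.94, 5.83 and 5.85. All 7 transgenic arrays lay above the wild-type mean, but the groups overlapped, as transgenic replicates 4 and 7 (5.92 and 5.90) fell below wild-type replicate 1. The means were 6.11 ± 0.16 (SD, n = 7) and 5.88 ± 0.06 (SD, n = 3), a difference of 0.23 (SE 0.087, 95% interval 0.04 to 0.42). Top2a did not pass the test over all genes (limma p = 0.0226, adjusted p = 0.562; exact permutation p = 0.05, adjusted p = 0.786). In the permutation 6 of 120 splits were as large, and the smallest p possible was 0.00833. Top2a was the one member with an unadjusted limma p under 0.05, which 2.35% of all genes reached with a higher and 4.86% with a lower transgenic mean. Within the first sitting the difference was 0.30 (limma p = 0.00999, exact permutation p = 0.0714). Its 2 spots on an array differed by a median of 0.09, beside 0.07 over all genes.

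Pcna encodes the sliding clamp that tethers DNA polymerase delta to the template, and it also serves DNA repair. Its signal before normalization ran from 3.49 through 13.6 to 18.8 grey levels in the transgenic group, and wild type gave 11.1, 13.9 and 7.40. The first-sitting transgenic arrays averaged 16.0 ± 2.604 grey levels (SD, n = 5) and the wild-type arrays 10.8 ± 3.25 (SD, n = 3), and these ranges overlapped.

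Normalized Pcna ran from 5.86 through 5.91 to 6.07 in the transgenic group, and wild type gave 5.86, 5.88 and 5.79. Transgenic replicate 5 was the highest array. The means were 5.94 ± 0.07 (SD, n = 7) and 5.85 ± 0.05 (SD, n = 3), a difference of 0.09 (SE 0.044, 95% interval -0.01 to 0.19) that did not pass (limma p = 0.0653, adjusted p = 0.709; exact permutation p = 0.0583). All 7 transgenic arrays were above the wild-type mean, though transgenic replicate 2 lay within the wild-type range.

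E2f5 encodes an E2F factor known mainly as a repressor, which pairs with p130. Its unnormalized signal ran from 3.32 through 22.3 to 30.7 grey levels in the transgenic group, and wild type gave 26.5, 28.2 and 24.4. The wild-type arrays were close together, while the transgenic arrays lay on both sides of them, with 3 of 5 first-sitting arrays above the wild-type mean of 26.4 ± 1.90 (SD, n = 3).

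Normalized E2f5 ran from 5.90 through 6.13 to 6.26 in the transgenic group against 6.21, 6.15 and 6.18 in wild type. Only transgenic replicate 5 lay above the wild-type mean. The difference of -0.10 (SE 0.069, 95% interval -0.26 to 0.05) between 6.08 ± 0.12 (SD, n = 7) and 6.18 ± 0.03 (SD, n = 3) did not pass (limma p = 0.160, adjusted p = 0.868; exact permutation p = 0.192).

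Rbl2 encodes p130, the retinoblastoma relative that is most abundant in resting cells. Before normalization it ran from 2.21 through 18.04 to 26.7 grey levels in the transgenic group, and wild type gave 12.1, 14.6 and 5.71. Of the first-sitting transgenic arrays 4 lay above all wild-type arrays, and transgenic replicate 1 (10.7) lay among them.

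Normalized Rbl2 ran from 5.83 through 5.96 to 6.11 in the transgenic group, and wild type gave 5.89, 5.89 and 5.76. Transgenic replicates 2, 3 and 5 were the highest arrays, and replicates 1 and 7 (both 5.83) lay below 2 wild-type arrays. The difference of 0.13 (SE 0.068, 95% interval -0.03 to 0.28) between 5.97 ± 0.12 (SD, n = 7) and 5.85 ± 0.08 (SD, n = 3) did not pass (limma p = 0.0959, adjusted p = 0.798; exact permutation p = 0.142). It rested in part on wild-type replicate 3, where Rbl2 was not above background: without that array the difference was 0.08.

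Mdm2 encodes the ubiquitin ligase that turns over p53. Its unnormalized signal ran from 4.49 through 15.2 to 25.2 grey levels in the transgenic group, and wild type gave 19.6, 26.6 and 18.7. Only transgenic replicates 2 and 4 reached the wild-type range.

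Normalized Mdm2 ran from 5.93 through 5.97 to 6.10 in the transgenic group, and wild type gave 6.04, 6.12 and 6.06. The difference of -0.08 (SE 0.043, 95% interval -0.17 to 0.02) between 6.00 ± 0.07 (SD, n = 7) and 6.07 ± 0.04 (SD, n = 3) did not pass (limma p = 0.0991, adjusted p = 0.798; exact permutation p = 0.108). Transgenic replicate 2 was the only one of its group above the wild-type mean.

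**Figure D2:**
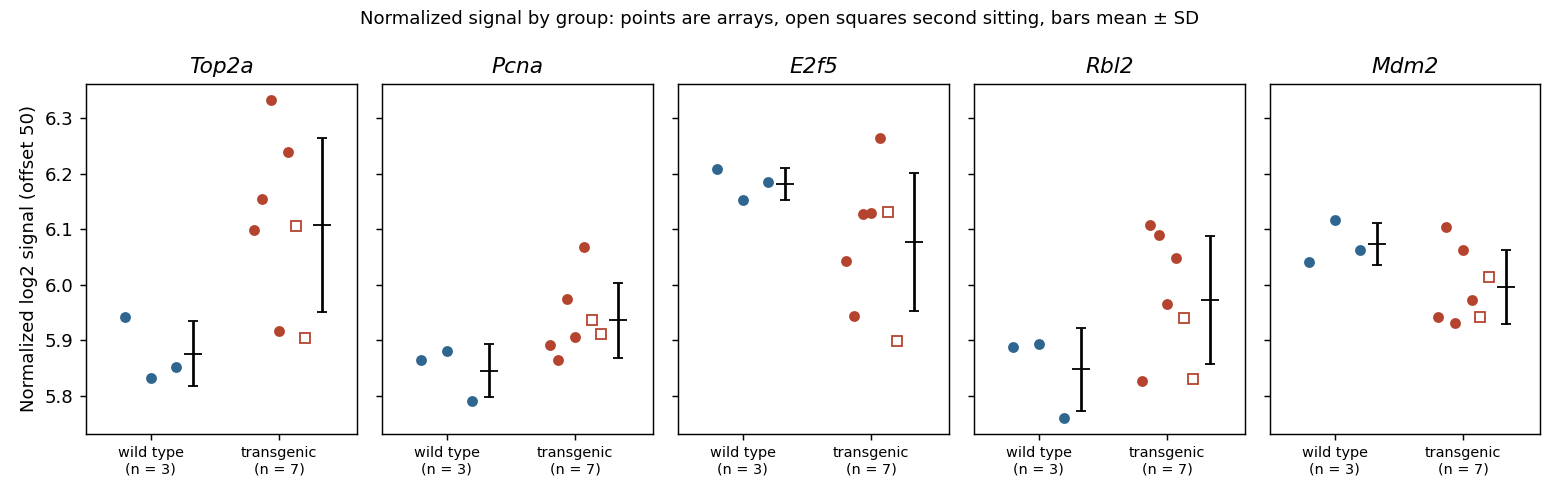
Normalized log2 signal of the 5 genes by group; points are arrays (open squares, second sitting) and bars are mean ± SD. Top2a, Pcna and Rbl2 had higher means in the transgenic group and E2f5 and Mdm2 lower ones, with overlapping groups for every gene.

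For all 5 genes the groups overlapped, and 1.68% of all genes had groups that did not. Within the first sitting the differences were 0.11 for Pcna, 0.18 for Rbl2, -0.09 for E2f5 and -0.08 for Mdm2, with exact permutation p-values of 0.125, 0.0893, 0.286 and 0.196. The size of each difference depends on the constant added before the logarithm: with no added constant Top2a differed by 1.14, Rbl2 by 0.74, Pcna by 0.58, E2f5 by -0.45 and Mdm2 by -0.36, and with 200 grey levels added Top2a differed by 0.07. The smallest adjusted p under any setting was 0.445 for Top2a, 0.621 for Pcna, 0.621 for E2f5, 0.544 for Rbl2 and 0.560 for Mdm2.

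Top2a and Pcna, both used by cells that copy their DNA, were followed together across the arrays. Their normalized signals gave Pearson r = 0.689 (permutation p = 0.0217) and Spearman rho = 0.588 (permutation p = 0.0807) over 10 arrays. All 10 pairs of the 5 genes were computed, and after adjustment over them the p-values were 0.109 and 0.202, so the relation did not pass. Transgenic replicates 3 and 5 were high in both genes, and wild-type replicate 3 was low in both.

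Transgenic replicates 3 and 5 lie farthest from the median of Top2a, and without both r was 0.361 (exact permutation p = 0.406). Leaving out the extremes of Top2a also narrows its range, which can lower r, so this check alone cannot decide whether the relation depends on them. Without transgenic replicate 3 alone r was 0.659, and without transgenic replicate 5 alone it was 0.635. Within the first sitting r was 0.714 (n = 8, exact permutation p = 0.0376), and within the transgenic group 0.532 (n = 7, exact permutation p = 0.219). After removing each group's mean it was 0.497 (permutation p = 0.146). Without background correction r was 0.302, and on unnormalized signal, where array brightness is shared by all genes, it was 0.747 over all arrays and 0.619 within the first sitting.

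**Figure D3:**
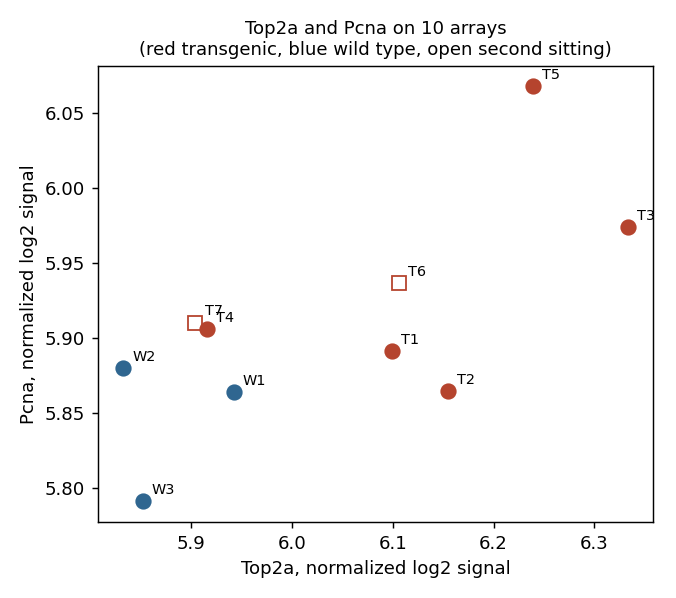
Normalized log2 signal of Pcna against that of Top2a on the 10 arrays (red transgenic, blue wild type, open squares second sitting). Transgenic replicates 3 and 5 lie at the upper right (r = 0.689 with them and 0.361 without both).

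None of the other 9 pairs passed after adjustment either. Top2a with Rbl2 gave r = 0.755 (permutation p = 0.0142, adjusted p = 0.109), beside 0.689 for Top2a with Pcna. Top2a with Mdm2 gave r = -0.657 (permutation p = 0.0421, adjusted p = 0.137). Pcna gave 0.589 with Rbl2 and -0.584 with Mdm2. E2f5 gave 0.045 with Top2a and 0.019 with Rbl2, which encodes its partner in the resting-cell complex, over all arrays. After removing group means these were 0.485 and 0.319, and within the first sitting -0.176 and -0.249. With Pcna its r was 0.261 over all arrays, 0.350 within the first sitting and 0.801 within the transgenic group (exact permutation p = 0.0284, adjusted p = 0.284 over the pairs).

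The genes nearest to each of the 5 were ranked by Pearson r over the 10 arrays among the genes above background on all of them, 356 or 357 in each ranking, as a description. Nearest to Top2a were Ccnb1, the cyclin of mitotic entry (0.816, and 0.919 in the first sitting), Gadd45a, a DNA damage gene (0.791), and Odc1, the polyamine enzyme (0.765), and Pcna was in place 10. Nearest to Pcna were Ercc3, a helicase of nucleotide excision repair (0.840), Tsn, a nucleic acid binding protein (0.820), and Ctsd, a lysosomal protease (0.801), and Top2a was in place 9. Nearest to Rbl2 were Brca2, of homologous recombination (0.816), Epor, the erythropoietin receptor (0.810), and Odc1 (0.782), followed by Top2a in place 4. Pcna was in place 23 for Rbl2.

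Nearest to E2f5 were Klf2, a factor of resting lymphocytes (0.767, and 0.602 in the first sitting), Rps6ka1, a kinase (0.747), and Nfe2, an erythroid and megakaryocyte factor (0.735, and 0.522 in the first sitting). Nearest to Mdm2 were Satb1, a chromatin organiser of T cells (0.777), Foxk1, a forkhead factor (0.745), and Nfkb1 (0.744). Top2a and Pcna stood near the far end of the Mdm2 order, in places 349 and 344 of 356.

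Genes of 5 lists written from general knowledge were read beside them. Of 39 listed genes of DNA replication and mitosis 10 were measured. In the transgenic group 9 of them were higher and 1 lower, their median difference was 0.03, none passed, and Top2a alone had an unadjusted p under 0.05. Over all 597 genes 51.8% were higher and the median was 0.002. The other members with the smallest p were Pold1, the catalytic subunit of DNA polymerase delta, at 0.12 (SE 0.063, adjusted p = 0.798 by limma), which was 0.05 without wild-type replicate 3; Pola1, of the polymerase that primes synthesis, at 0.09; and Lig1, the ligase of Okazaki fragments, at 0.03 and above background on 4 arrays.

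Of 23 listed cyclins and cell cycle kinases 16 were measured, 12 higher and 4 lower, with a median of 0.01. Ccna1, a cyclin known chiefly from germ cells, differed by 0.28 with a wide spread (SE 0.168, adjusted p = 0.824 by limma). Cdk5, a kinase best known from neurons, differed by 0.05 (0.02 without wild-type replicate 3 and 0.08 without wild-type replicate 2). Ccnb1 differed by 0.10, which became 0.05 without wild-type replicate 3, 0.06 without transgenic replicate 3 and 0.16 without transgenic replicate 7. Of the E2F and Rb family 5 of 17 listed genes were measured, 3 higher and 2 lower, with a median of 0.04. Beside E2f5 and Rbl2 these were Rbl1, which encodes p107, at 0.04, Rb1, which encodes pRb, at -0.05 (0.05 after centring on the housekeeping genes), and Tfdp1, the partner that E2F factors need to bind DNA, at 0.04.

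Of 8 listed inhibitors of cyclin-dependent kinases 5 were measured, 3 higher and 2 lower, with a median of 0.006, and all 5 were higher after centring on the housekeeping genes. That centring moved the median difference of all 597 genes to 0.06, so counts of higher genes under it are not particular to these lists. The share of all genes higher under it is not given here. Cdkn2d (p19Ink4d) differed by 0.05, Cdkn1c (p57) by -0.02 (0.04 after that centring) and Cdkn2c (p18Ink4c) by 0.01. Of 26 listed regulators and targets of p53, 10 were measured, 5 higher and 5 lower, with a median of -0.0006, and 9 were higher after the same centring. Bax, the pro-apoptotic p53 target, differed by 0.17 (SE 0.072, limma p = 0.0339, adjusted p = 0.606, exact permutation p = 0.075), with all 7 transgenic arrays above the wild-type mean. Gadd45a differed by 0.09, which fell to 0.008 without wild-type replicate 3 and 0.04 without transgenic replicate 5, and was 0.15 without wild-type replicate 1 and 0.05 without transgenic replicate 3. Ccng1, a cyclin induced by p53, differed by -0.03 (0.04 after that centring). In the 5 lists together 44 genes were measured, 31 higher and 13 lower, and none passed. These counts moved with single arrays. Without transgenic replicate 5 the replication and mitosis list had 7 genes higher. Without wild-type replicate 3 the cyclin and kinase list had 8 higher and the 5 lists together 25. The p53 list had 3 genes higher without transgenic replicate 6.

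**Figure D4:**
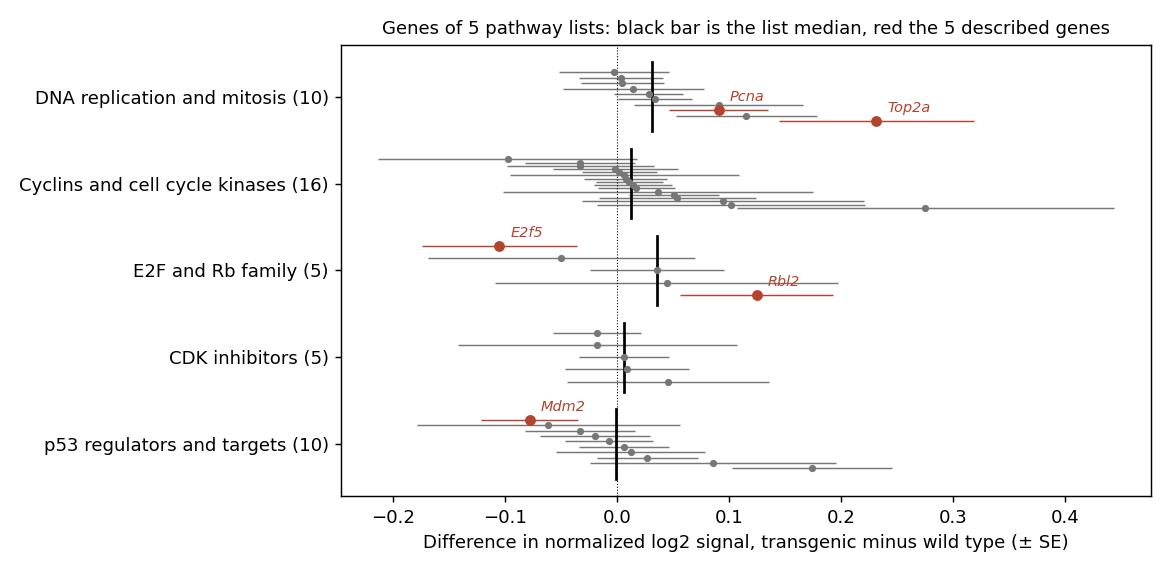
Differences in normalized log2 signal, transgenic minus wild type, with standard errors, for the measured genes of 5 lists (number measured in brackets). Red points are the 5 genes described and black bars list medians; medians lie between -0.0006 and 0.04.

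Spleen RNA mixes cell types, and fewer cells of a type cannot be told apart from less RNA per cell. Marker lists for the cells a spleen holds were therefore read on the same arrays. All 5 measured B cell markers, all 5 myeloid and all 4 erythroid markers were above background on all arrays, and 5 of 6 T cell markers were. So were 59.8% of all genes, and most spots without a gene name also carried code 0. These counts therefore do not by themselves identify the tissue. The B cell markers measured were Cd22, Pax5, Pou2af1, Blk and Cd40. Their mean ran from 6.37 to 6.59 in the transgenic and 6.51 to 6.74 in the wild-type group. Lower in the transgenic group were 5 of these 5 genes, beside 288 of all 597. None of the 5 passed the adjusted test, and 3 of them had an unadjusted limma p under 0.05, which 4.86% of all genes reached with a lower transgenic mean. The lowest of these differences was -0.24. Cd22 is the gene of the transgene, and neither this list nor its relations below were computed without it. T cell markers ran from 6.05 to 6.18 against 6.14 to 6.17, myeloid markers from 6.52 to 6.75 against 6.46 to 6.58, and stromal and endothelial markers from 6.04 to 6.18 against 6.11 to 6.15. Higher in the transgenic group were 2 of 6 T cell, 4 of 5 myeloid, 2 of 4 erythroid and 2 of 5 stromal and endothelial markers. Among these 1 myeloid marker had an unadjusted limma p under 0.05, which 2.35% of all genes reached with a higher transgenic mean. The erythroid markers Klf1, Nfe2, Epor and Tfrc had the widest range, 6.02 to 6.69 in the transgenic group against 6.19 to 6.36 in wild type. The highest erythroid values, 6.69 and 6.67, were on transgenic replicates 5 and 3, the arrays highest in both Top2a and Pcna.

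The 5 genes were set against the 5 lists with at least 4 measured genes, 25 relations in all. Rbl2 ran opposite to the B cell markers, r = -0.864 (permutation p = 0.0010, adjusted p = 0.025; rho = -0.867, adjusted p = 0.0545), and -0.870 within the first sitting. Top2a ran opposite to the T cell markers, r = -0.878 (permutation p = 0.00341, adjusted p = 0.0426; rho = -0.794, adjusted p = 0.113), and -0.870 within the first sitting. Leaving out the 2 arrays farthest from the median of the markers gave -0.751 and -0.862, and removing group means gave -0.810 and -0.836. Both depended on the scaling of the arrays: after centring on the housekeeping genes they were -0.169 and 0.091, and after median centring -0.648 and -0.340. Without background correction they were -0.677 and -0.521.

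With the erythroid markers r was 0.755 for Top2a, 0.762 for Rbl2 and 0.648 for Pcna, with adjusted p-values of 0.0678, 0.0678 and 0.136 by permutation. Without the 2 arrays farthest from the median of these markers, a step that also narrows the range of the markers, the values were 0.390, 0.594 and 0.003. After removing group means, with all arrays kept, they were 0.861, 0.798 and 0.691. Epor, among the genes nearest to Rbl2, is part of this list, so its closeness is not separate from the r of the list. Nfe2, among those nearest to E2f5, is part of it too. For E2f5 the r with the list was 0.448 (adjusted p = 0.323 by permutation), and 0.220 within the first sitting. Pcna, E2f5 and Mdm2 had no relation past the adjusted threshold with any list. The part of cell composition in the levels of the 5 genes was not tested.

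**Figure D5:**
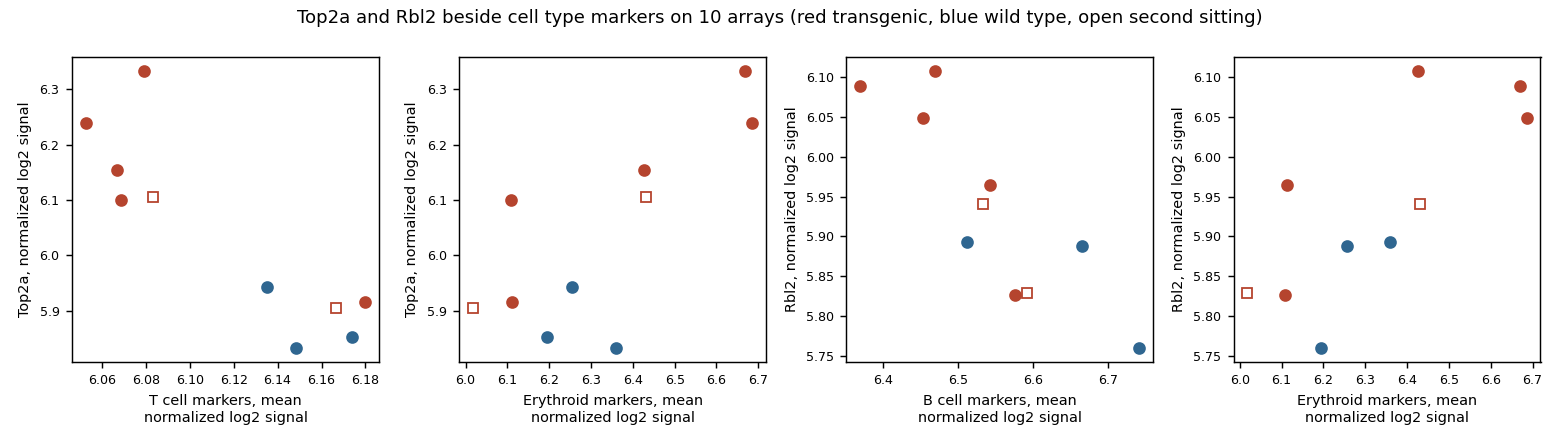
Normalized log2 signal of Top2a and Rbl2 against the mean of cell type markers on each array (red transgenic, blue wild type, open squares second sitting). On this scale Top2a falls as T cell markers rise (r = -0.878) and Rbl2 falls as B cell markers rise (r = -0.864), while both rise with erythroid markers (0.755 and 0.762). After centring on the housekeeping genes the first 2 values were 0.091 and -0.169.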

How the data were processed

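Splenocyte RNA in 7 transgenic and 3 wild-type samples was labelled and put on mouse cDNA arrays, as the labels' protocols state. The authors deposited, per the file headers, the intensity of every spot and of its local background as unnormalized mean grey levels. What their spot codes 0 and 2 mean is not stated. The authors' deposited table of processed values has no gene names and was taken as log2, since its sorted values followed the sorted log2 signal of the arrays; its scaling and centring are unknown, its column medians ran from -2.71 to -1.18, and it served only for counts.

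Background was corrected with normexp (offset 50), quantile normalization used the spots with a gene name, and log2 values of duplicate spots were averaged. All 597 genes entered the comparison in limma 3.58.1 in R 4.3.3 (lmFit and eBayes, two-sided, Benjamini-Hochberg, threshold 0.05) and by two-sided exact permutation over the 120 splits. Correlations were tested by permuting pairings, two-sided (100000 resamples, or exact for under 10 arrays). No filter on dim genes was applied, and no arrays had identical values. Tables and figures used Python 3.11.15, pandas 2.3.3 and matplotlib 3.10.9. The steps were tested on simulated data. Alternatives covered background, normalization, dim genes, single spots, sitting and each array.

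The members and lists were chosen with earlier results of these data known. Named beside them were the 3 genes of each list with the smallest p and the 3 genes nearest to each member. The relations with marker lists and with unnormalized signal were added after seeing the data. Gene names are those printed in the files; 81 were matched by hand to symbols, all found in the RefSeq table of GRCm38.p6.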

Additional observations from a re-analysis of the deposited data

Results flagged for a closer look

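Lig1, the DNA ligase of Okazaki fragments, stood apart on transgenic replicate 6, at 5.84 against 5.71 to 5.75 on the other 6 transgenic arrays. The gap was 0.702 of the group's range, above the limit of 0.568 for 7 samples. This array was one of the 2 dim arrays of the second sitting, and Lig1 was above background on only 4 arrays. Among the 20 genes searched, chance gives about 1 such array, so the value is reported without more.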

How the results depend on the processing

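No paired analysis was possible because the titles number the wild-type arrays 1 to 3 and give the transgenic arrays other numbers, so the groups share none. The directions of the 5 differences and their side of the threshold were the same under every alternative run, and the number of genes past the threshold stayed at 0. Leaving out one array gave 0.18 to 0.27 for Top2a, 0.06 to 0.11 for Pcna, 0.08 to 0.16 for Rbl2, -0.14 to -0.08 for E2f5 and -0.10 to -0.06 for Mdm2. Their sizes moved further with the processing: Pcna was 0.02 without background correction and 0.05 on the second spot, Mdm2 -0.13 and Rbl2 0.19 without background correction, E2f5 -0.07 without it, and housekeeping centring gave Pcna 0.15, Rbl2 0.20, E2f5 -0.05 and Mdm2 -0.04. Centring on the housekeeping genes moved the median of all genes to 0.06 and left 24 genes at an unadjusted p under 0.05, 20 higher and 4 lower, against 14 higher and 29 lower as reported; median centring gave 14 and 15. Under housekeeping centring all 5 inhibitors of cyclin-dependent kinases and 9 of 10 p53 genes were higher, and Rb1, Cdkn1c and Ccng1 turned to 0.0508, 0.0391 and 0.0417. Without background correction 3 p53 genes were higher and Rbl1 turned to -0.00717. Without single arrays the p53 count was 3 to 5. The correlation of Top2a with Pcna did not pass an unadjusted 0.05 after median centring (0.586), without background correction (0.302), on the second spot (0.548), as residuals (0.497), in transgenic arrays (0.532), without the 2 farthest arrays (0.361), unnormalized within the first sitting (0.619), nor without transgenic replicate 5 (0.635) or wild-type replicate 3 (0.623), and it ran from 0.623 to 0.775 without single arrays. Top2a with the T cell markers turned to 0.091 under housekeeping centring. Small differences changed sign: Cdk5 to -0.015 on the first spot, Cdkn2c to -0.00287 with plain subtraction and -0.000365 with no offset. Without single arrays Cdkn2c ran from -0.0125 to 0.0473, Cdkn1c from -0.0405 to 0.0198, Tfdp1 from -0.0204 to 0.0999, Cdkn2d from -0.00392 to 0.0775 and Rbl1 from -0.00347 to 0.108. The causes were not tested. Signal above background of the 5 genes was smaller than the local background on every array. It was 14.4% to 80.6% of that background on the wild-type arrays and 4.76% to 15.2% on transgenic replicates 6 and 7. Such dim signals and only 3 wild-type arrays limit what the comparison can show.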
